A study of Mus musculus with 16 samples.

Results

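The let-7 family was followed in liver RNA through the main arms of its 9 members on a mouse miRNA array: mmu-let-7a, mmu-let-7b, mmu-let-7c, mmu-let-7d, mmu-let-7e, mmu-let-7f, mmu-let-7g, mmu-let-7i and mmu-miR-98, written here without the mmu prefix. The members were taken by their exact feature names, and all 9 of 9 were found among the 611 mouse miRNAs of a table of 650 features. The study compared phenobarbital, a tumour promoter in mouse liver, with control in livers with and without beta-catenin in hepatocytes. It used 16 arrays, 4 in each of 4 groups of male C3H mice: CTNNB1KO mice on a diet with 0.05% phenobarbital for 12 weeks, CTNNB1KO mice on a phenobarbital-free diet, WT mice with phenobarbital and WT mice on the phenobarbital-free diet. The knockout came from Cre recombinase under the albumin promoter acting on a Ctnnb1 gene with loxP sites around exons 3 and 6, on a background crossed to C3H for 5 generations. The albumin promoter drives Cre in hepatocytes, so other liver cells keep Ctnnb1. The labels state neither ages nor whether WT mice carried the floxed allele, and an miRNA array holds no feature for the Ctnnb1 mRNA to check the genotypes. The labels name water as the control agent while the treatment text names a diet, so these groups are called controls.

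let-7 miRNAs are cut from hairpin precursors by Drosha and Dicer and are loaded into Argonaute, where the seed near the 5′ end pairs with target mRNAs. The family accumulates as tissues mature, and the RNA-binding protein LIN28 blocks its processing in embryonic and some tumour cells. Known targets include mRNAs of growth regulators such as RAS proteins, MYC and HMGA2.

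The mature sequences are shown because the members differ at few bases, which bears on how far an array can tell them apart. RefSeq entries on GRCm38.p6 were matched for all 9 members. Each is 22 bases long, and the capitals mark the seed, bases 2 to 8, which is identical in all 9:
let-7a: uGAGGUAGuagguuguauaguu
let-7b: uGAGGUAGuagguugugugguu
let-7c: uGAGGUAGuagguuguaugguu
let-7d: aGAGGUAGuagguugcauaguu
let-7e: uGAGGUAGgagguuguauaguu
let-7f: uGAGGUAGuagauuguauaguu
let-7g: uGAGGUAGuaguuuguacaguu
let-7i: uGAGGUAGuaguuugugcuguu
miR-98: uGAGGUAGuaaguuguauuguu

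Counted from 1 at the 5′ end and written as the let-7a base, the position and the member's base, let-7c differs from let-7a by A19G, let-7e by U9G and let-7f by G12A. let-7b differs by A17G and A19G, let-7d by U1A and U16C, let-7g by G12U and U18C, and miR-98 by G11A and A19U. let-7i differs by G12U, A17G, U18C and A19U. Of the 36 pairs of members, 4 differ at 1 base and 10 at 2 bases, and the most distant pair differs at 6. The same seed is held by 11 of 1679 mature mouse miRNA names in the RefSeq table. How much of each feature's signal came from a near-identical member was not tested, so values of single members are uncertain to that degree.

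The 12 hairpins that hold these sequences lie in clusters and alone. On the minus strand of chromosome 13, mature let-7a lies at chr13:48538239-48538260, let-7f at chr13:48537889-48537910 and let-7d at chr13:48536078-48536099, with hairpin starts 350 to 2167 bases apart. On the plus strand of chromosome 15, let-7c at chr15:85706616-85706637 and let-7b at chr15:85707325-85707346 come from hairpins whose starts are 716 bases apart, inside the non-coding gene Lncppara. On the plus strand of the X chromosome, a second copy of let-7f at chrX:151912353-151912374 and miR-98 at chrX:151913229-151913250 lie within the bounds of Huwe1, a ubiquitin ligase gene, with hairpin starts 868 bases apart.

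let-7g at chr9:106178846-106178867 lies within Wdr82 on the plus strand, and let-7i at chr10:122985698-122985719 is on the minus strand with no annotated gene around its hairpin. A second let-7c copy at chr16:77599672-77599693 starts its hairpin 721 bases from that of Mir99a. let-7e at chr17:17830366-17830387 lies within Spaca6, its hairpin 460 bases from that of Mir125a. A second let-7a hairpin at chr9:41536716-41536811 lies within the non-coding gene Mir100hg. let-7a, let-7c and let-7f are therefore each the product of 2 hairpins, and a mature-arm feature sums over them.

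The values are log2 expression values as deposited, and a level is read for each feature on its own, since features differ in how strongly they bind. The viral miRNA features of the array gave a background: the 0.95 quantile of their means, 3.98, was taken as a dim floor. All 9 members lay above it on all 16 arrays, and the highest value on an array was 15.05 to 15.33, well above any member. A feature was called bright where its mean over the 16 arrays was at or above the 0.9 quantile of mouse miRNAs, which was 5.72, dim where every group mean was at or under the floor, and middle otherwise. By this rule 7 members were bright, let-7e and miR-98 were middle and no member was dim, against 62 bright, 79 middle and 470 dim mouse miRNAs in all.

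Hepatocyte miRNAs were strong, as the tissue label implies: 6 of 6 listed markers were bright in the table, whereas 1 of 4 neural markers lay above the floor. The number of mouse miRNAs above the floor was 100 on CTNNB1KO phenobarbital replicate 4 and 114 to 133 on the other arrays. CTNNB1KO phenobarbital replicates 1 and 2 carried the muscle miRNA miR-1 at 8.17 and 6.03, against 3.86 or less elsewhere. Bulk RNA does not tell fewer cells of a type apart from less RNA per cell.

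The bright members held nearly the same signal in all 4 groups. mmu-let-7f averaged 11.47 over the 16 arrays and ranked 6 of 611 mouse features by signal, and mmu-let-7a averaged 11.32 and ranked 7. let-7g (10.66), let-7c (10.45), let-7b (10.39), let-7d (9.59) and let-7i (8.40) followed, at ranks 10, 12, 13, 19 and 29. The middle members were mmu-miR-98 at 5.60 and mmu-let-7e at 5.57, at ranks 66 and 69. Ranks describe array signal and not molecules per cell.

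**Figure D1:**
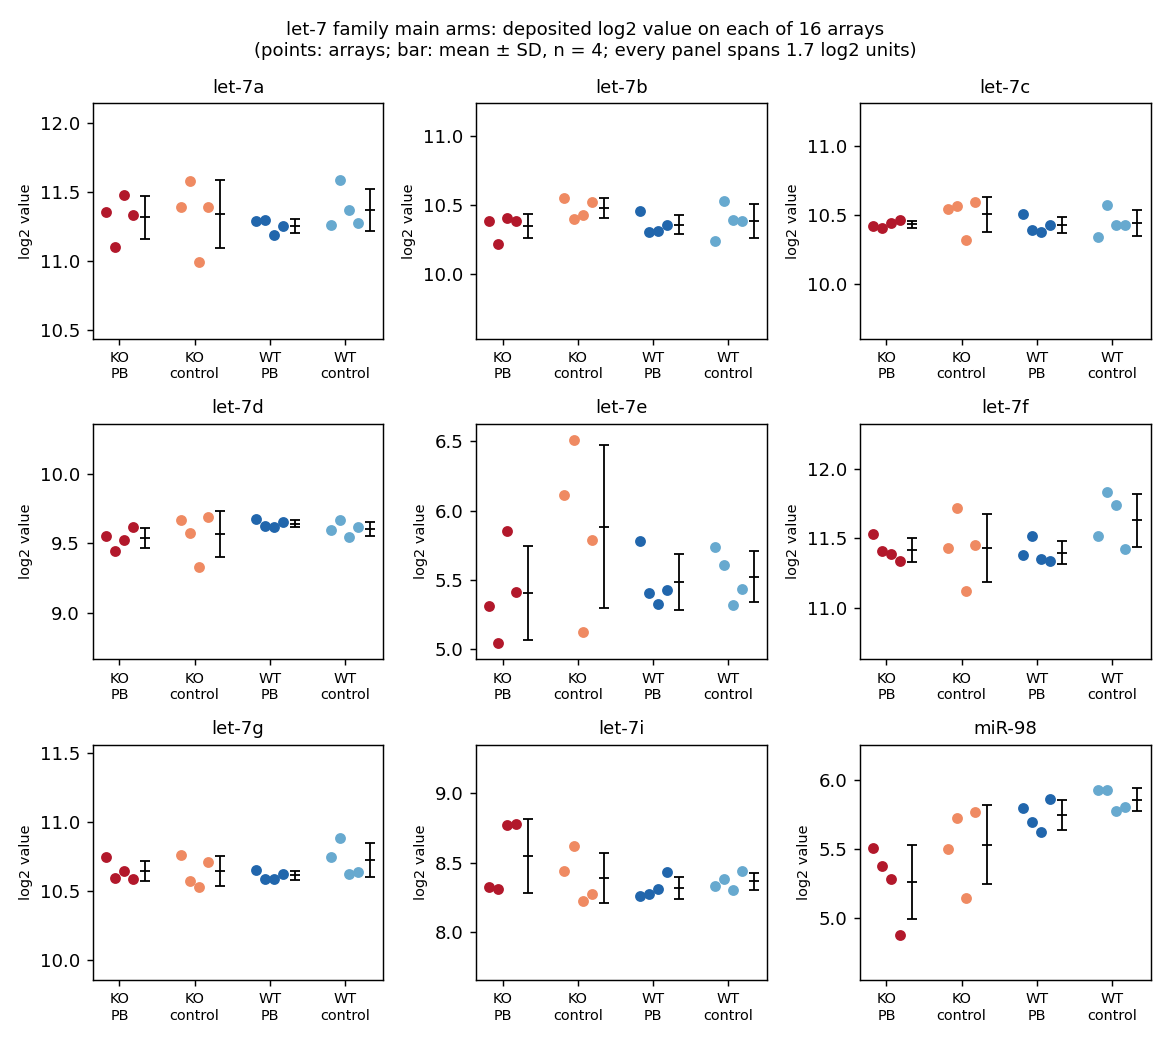
Deposited log2 value (y axis) of each member on each array, in CTNNB1KO (KO) and WT livers with phenobarbital (PB) and in controls; bars give mean ± SD, n = 4, and every panel spans the same range. let-7b, let-7c, let-7d and let-7g hardly vary, let-7e spans 5.04 to 6.51, and miR-98 lies lower in CTNNB1KO than in WT arrays within each diet, with 6 of 8 CTNNB1KO arrays below all WT arrays.

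let-7c was the steadiest member. It stood at 10.42, 10.41, 10.45 and 10.46 in CTNNB1KO livers with phenobarbital and at 10.54, 10.56, 10.32 and 10.59 in CTNNB1KO controls. In WT livers it stood at 10.51, 10.39, 10.38 and 10.42 with phenobarbital and at 10.34, 10.57, 10.43 and 10.43 in controls. All 16 values fell within 0.27 of each other on the log2 scale, and all 4 groups overlapped. Across all arrays let-7b ran from 10.21 to 10.55, let-7g from 10.53 to 10.89 and let-7d from 9.33 to 9.69, so each of these also stayed within 0.36.

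let-7a ran from 10.99 to 11.59 and let-7f from 11.12 to 11.83. The lowest value of each was on CTNNB1KO control replicate 3. let-7i ran from 8.22 to 8.78. Its CTNNB1KO phenobarbital arrays split, with replicates 1 and 2 at 8.32 and 8.31 and replicates 3 and 4 at 8.77 and 8.78, against 8.26 to 8.43 in WT livers with phenobarbital. Replicates 1 and 2 are the arrays that carried muscle miRNAs, whose part in the split was not tested.

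The within-group SD of all 7 bright members lay below the median SD of other bright miRNAs, by more for some than for others. Pooled over the 4 groups, the SD was 0.09 for let-7b, let-7c, let-7d and let-7g and 0.17 for let-7a, let-7f and let-7i. The 55 bright miRNAs outside the family had a median SD of 0.22, and 3 to 5 of them had a smaller SD than let-7b, let-7c, let-7d or let-7g. For let-7a, let-7f and let-7i, 15, 15 and 16 of the 55 had a smaller SD. Many of the 55 were dimmer than every bright member, since let-7i, the weakest, ranked 29 among 62 bright miRNAs. The SDs were not compared at matched signal. The middle members were less alike: the SD was 0.37 for let-7e and 0.21 for miR-98, against a median of 0.24 over 77 other middle miRNAs. These are descriptions of the spread, with no test.

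**Figure D2:**
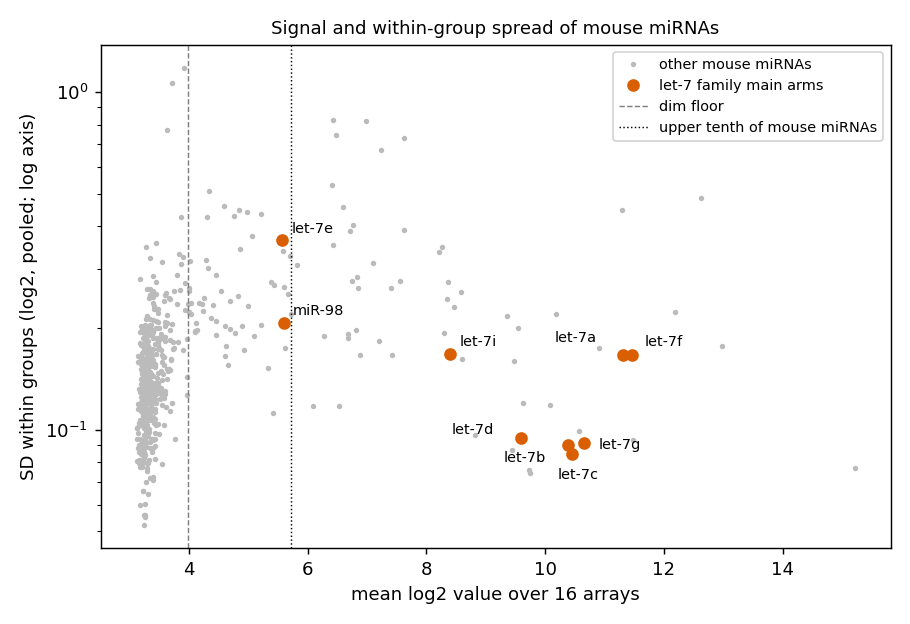
Mean log2 value over the 16 arrays (x axis) and pooled within-group SD on a log axis (y axis) of 611 mouse miRNAs, with the 9 family members in orange. The 7 bright members lie to the right at SDs of 0.09 to 0.17, and let-7e stands higher at 0.37.

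The order of the 4 group means differed among members. WT controls had the highest mean for let-7a, let-7f, let-7g and miR-98, CTNNB1KO controls for let-7b, let-7c and let-7e, WT livers with phenobarbital for let-7d and CTNNB1KO livers with phenobarbital for let-7i. For all 9 members, arrays of neighbouring groups in that order overlapped. The highest and lowest group means were 0.08 apart for let-7c, 0.23 for let-7f and let-7i, 0.48 for let-7e and 0.60 for miR-98.

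Phenobarbital in WT livers left the family close to its control values. None of the 9 members passed limma's test at a Benjamini-Hochberg adjusted p of 0.05, where 2.78% of mouse miRNAs did, and none had an unadjusted p under 0.05 (46 of 611 did). An ordinary linear model also called none. The median difference of the 9 members was -0.05 on the log2 scale, 8 of 9 differences lay below 0, and the median of all mouse miRNAs was -0.00016. Members measured on the same arrays can move together, so a count of signs is no test, here or below. No member's phenobarbital arrays lay wholly apart from its control arrays, although 3.27% of mouse miRNAs did so on the lower side and 3.93% on the higher side.

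let-7f, which has copies on chromosome 13 and the X chromosome, had the smallest p in this comparison. It stood at 11.38, 11.52, 11.35 and 11.34 in WT livers with phenobarbital and at 11.52, 11.83, 11.74 and 11.42 in WT controls. All but replicate 2 of the phenobarbital arrays lay below all 4 controls. The difference was -0.23 ± 0.11 (SE), with a 95% interval from -0.46 to 0.0011 (limma adjusted p = 0.663). With array weights, which count WT control replicate 4 least among all arrays, it was -0.32 ± 0.09 (adjusted p = 0.0382). It was -0.11 after quantile normalization and -0.16 without WT control replicate 2, and neither value passed.

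Phenobarbital in CTNNB1KO livers called no family member either, and it called 0% of mouse miRNAs (32 had an unadjusted p under 0.05, none of them a member; an ordinary linear model called none of the members). The median difference of the 9 members was -0.03, with 8 of 9 below 0, against -0.01 over all mouse miRNAs. Among those below 0, let-7g (-0.0005), let-7f (-0.01) and let-7a (-0.02) lay close to it. Their signs changed in 6, 4 and 4 of 27 alternatives. No member's arrays were wholly apart, where 1.47% of mouse miRNAs were apart and lower and 1.31% apart and higher.

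let-7e, whose hairpin lies beside that of Mir125a, had the largest difference here. It stood at 5.31, 5.04, 5.85 and 5.41 with phenobarbital and at 6.11, 6.51, 5.12 and 5.79 in controls. Control replicate 3 was the lowest and control replicate 2 the highest of the 4 controls, and the groups overlapped. The difference was -0.48 ± 0.23 (SE), with a 95% interval from -0.97 to 0.01 (limma adjusted p = 0.904). It was -0.73 without control replicate 3 and -0.27 without control replicate 2, and neither value passed. Without the arrays that carried muscle miRNAs, left out after seeing the data, it was -0.25.

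**Figure D3:**
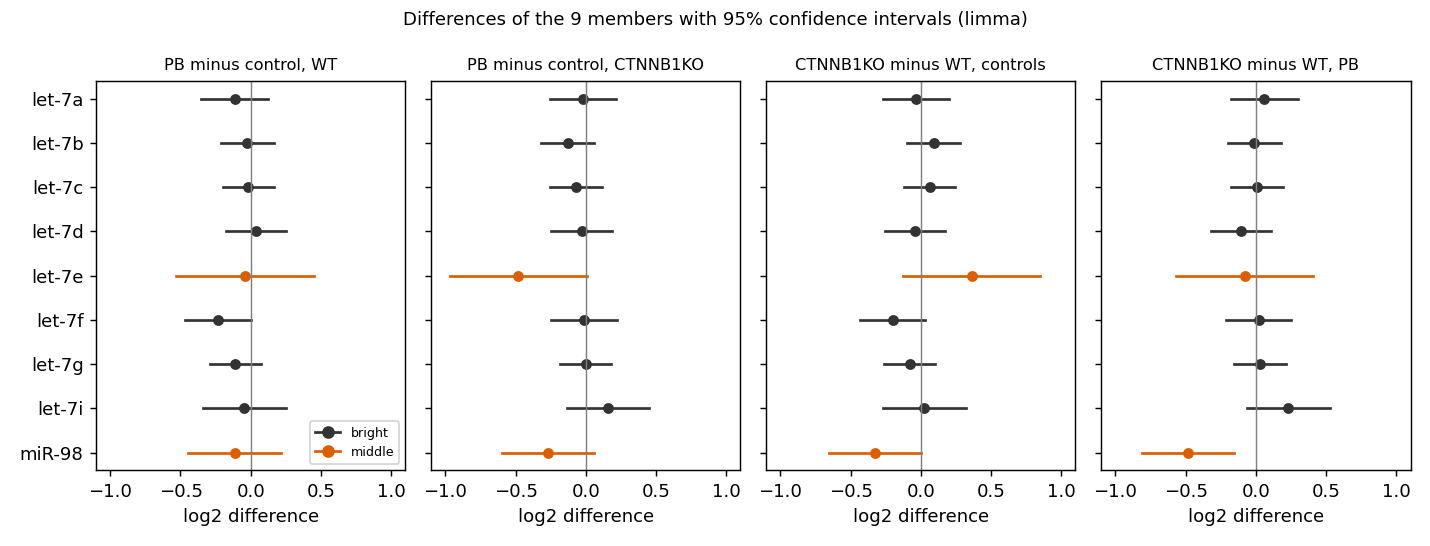
Log2 difference (x axis, point) of each member with its 95% confidence interval from limma (line) in the 4 comparisons, for bright members in black and middle members in orange. The intervals of the bright members lie between -0.46 and 0.52, and those of let-7e are the widest.

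Loss of Ctnnb1 was compared in controls and under phenobarbital. In controls none of the 9 members passed, where 0.818% of mouse miRNAs did, and none had an unadjusted p under 0.05 (49 of 611 did). Under phenobarbital none passed, where 3.76% of mouse miRNAs did, and 1 of 9, miR-98, had an unadjusted p under 0.05 (85 of 611 did). An ordinary linear model called none in either. The median difference of the members was -0.03 in controls (all mouse miRNAs 0.02) and 0.01 under phenobarbital (all mouse miRNAs 0.02). let-7f differed by -0.20 ± 0.11 in controls and by 0.02 ± 0.11 under phenobarbital. The value in controls was 0.08 after quantile normalization, the only 1 of 27 alternatives that turned its direction. With median-centred arrays it was -0.21. Without CTNNB1KO control replicate 3 it was -0.10.

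The precision allows bounds on the bright members. Over their 28 differences in the 4 comparisons, the values ran from -0.23 to 0.23 with standard errors of 0.09 to 0.14. The 95% intervals, taken singly, reached from -0.46 to 0.52, which is 0.725-fold to 1.44-fold. That range is the extreme over the 28 intervals, and each single interval was narrower. It holds for the fit on all arrays and does not cover the alternatives, in which let-7i moved most upward. A shift shared by most miRNAs cannot be seen in these values, since RMA as usually run scales the arrays to each other.

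let-7i was the bright member with the largest positive difference. It stood at 8.55 ± 0.27 in CTNNB1KO livers with phenobarbital and at 8.32 ± 0.08 in WT livers with phenobarbital (mean log2 value ± SD, n = 4 each). The difference was 0.23 ± 0.14 (SE; limma adjusted p = 0.579), and it was 0.15 without CTNNB1KO phenobarbital replicate 4. Without the arrays that carried muscle miRNAs, left out after seeing the data, it was 0.46. In that setting the let-7i difference between phenobarbital and control in CTNNB1KO went from 0.16 to 0.39. Neither value passed. let-7d stood at 9.44 to 9.62 in CTNNB1KO livers with phenobarbital and at 9.62 to 9.68 in WT livers with phenobarbital, with a narrow gap and no overlap. Its difference was -0.11 ± 0.10 (adjusted p = 0.805).

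miR-98, the member on the X chromosome within Huwe1, was lower in CTNNB1KO livers on both diets. With phenobarbital it stood at 5.50, 5.37, 5.28 and 4.88 in CTNNB1KO livers and at 5.79, 5.69, 5.62 and 5.86 in WT livers. In controls it stood at 5.49, 5.72, 5.14 and 5.76 in CTNNB1KO livers and at 5.92, 5.93, 5.77 and 5.80 in WT livers. On each diet all 4 CTNNB1KO arrays lay below all 4 WT arrays, narrowly so in controls. miR-98 was 1 of 2 members, with let-7d, whose arrays were apart and lower under phenobarbital (7.04% of mouse miRNAs were). It was the only such member in controls, where 3.44% of mouse miRNAs were apart and lower. No member was apart and higher, against 4.42% of mouse miRNAs under phenobarbital and 2.29% in controls.

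The miR-98 difference was -0.48 ± 0.16 (SE) under phenobarbital, with a 95% interval from -0.81 to -0.15, and it did not pass (limma adjusted p = 0.0982). In controls it was -0.33 ± 0.16 (adjusted p = 0.621). Averaged over both diets, a contrast chosen after these values had been seen, the miR-98 difference was -0.40 ± 0.11, a fold of 0.756 with a 95% interval from 0.643 to 0.888. That passed (adjusted p = 0.0394), where 5.56% of mouse miRNAs did, and it was the only member to do so. Phenobarbital averaged over both genotypes, added likewise, called 0 of 9 members, where 1.8% of mouse miRNAs passed; no member had an unadjusted p under 0.05, and an ordinary linear model called none. The miR-98 call for genotype averaged over diets ended without any of 12 of the 16 single arrays (limma adjusted p up to 0.0854). It also ended with the replicate number as a block (adjusted p = 0.055). This call held without CTNNB1KO phenobarbital replicate 1 or 2 and without CTNNB1KO control replicate 2 or 4.

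The single contrast under phenobarbital passed among miRNAs above the floor (adjusted p = 0.0342) and, as a choice made after seeing the data, without the arrays that carried muscle miRNAs (-0.66 ± 0.18, adjusted p = 0.0357). Without CTNNB1KO phenobarbital replicate 4 it was -0.36 (adjusted p = 0.239). On that replicate miR-98 lay 0.38 below its group mean, and the 77 middle miRNAs outside the family lay on average 0.28 below theirs. In controls the difference was -0.20 without CTNNB1KO control replicate 3.

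Markers of other cells are set beside miR-98, given as the log2 of their summed linear signal, which the strongest markers of a list dominate. The leukocyte list (5 of 7 above the floor) lay at 8.32 to 9.91 in CTNNB1KO livers with phenobarbital and 7.81 to 8.21 in WT livers with phenobarbital. In controls it lay at 8.09 to 10.13 in CTNNB1KO and 8.08 to 8.40 in WT. The erythroid list (3 of 3) lay at 10.30 to 11.44 against 11.55 to 12.16 under phenobarbital, and at 10.19 to 10.76 against 11.53 to 12.98 in controls, CTNNB1KO before WT. The list of biliary or other epithelial markers (4 of 8) lay at 7.84 to 8.27 against 7.39 to 7.74 under phenobarbital and at 7.57 to 8.21 against 7.35 to 7.61 in controls. The stellate or mesenchymal list (6 of 8) lay at 8.10 to 8.74 against 7.85 to 8.10 under phenobarbital and at 7.89 to 8.75 against 7.98 to 8.20 in controls, CTNNB1KO before WT. In the genotype contrast averaged over diets, 5.56% of mouse miRNAs were called in either direction. Called higher in CTNNB1KO were 3 of 7 leukocyte markers and a single marker each of 8 stellate and 8 epithelial ones. Called lower were 2 of 3 erythroid markers. None of the 6 hepatocyte, 2 endothelial, 6 muscle and 4 neural markers was called. The muscle list (3 of 6) lay at 5.86 to 9.28 in CTNNB1KO livers with phenobarbital and at 5.82 to 6.06 in the other groups. The part of these cells in the miR-98 difference was not tested.

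The interaction asks whether the phenobarbital effect differed between genotypes. No member passed, where 1.15% of mouse miRNAs did, and none had an unadjusted p under 0.05 (51 of 611 did); an ordinary linear model called none. The values, CTNNB1KO minus WT, ran from -0.44 for let-7e to 0.22 for let-7f, with 95% intervals from -1.13 to 0.25 and from -0.11 to 0.55. The let-7e value was -0.69 without CTNNB1KO control replicate 3 and -0.23 without CTNNB1KO control replicate 2. That of miR-98 was -0.16, with an interval from -0.62 to 0.31.

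The bright and the middle members were also set beside other miRNAs of their class. The bright class reaches down to 5.72, below its weakest family member, let-7i (8.40), so signal was not matched. In WT livers with phenobarbital against controls, the 7 bright members had a median difference of -0.05, and the 55 other bright miRNAs one of -0.03 with quartiles of -0.16 and 0.05. In CTNNB1KO the values were -0.02 and 0.02, with quartiles of -0.17 and 0.20. For CTNNB1KO against WT in controls they were -0.03 and -0.14, with quartiles of -0.29 and 0.14. For CTNNB1KO against WT under phenobarbital they were 0.02 and -0.05, with quartiles of -0.44 and 0.16. The median of the bright members lay between the quartiles in all 4 comparisons. Single members outside them were let-7f in WT (-0.23) and let-7i between genotypes under phenobarbital (0.23). The 470 dim miRNAs had medians between -0.01 and 0.02 in these 4 comparisons.

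The middle members, let-7e and miR-98, did not move alike. In CTNNB1KO against WT controls let-7e differed by 0.36 ± 0.23 and miR-98 by -0.33 ± 0.16. Without CTNNB1KO control replicate 2 the let-7e value was 0.15, and without replicate 3 it was 0.61. Under phenobarbital the values were -0.08 ± 0.23 for let-7e and -0.48 ± 0.16 for miR-98. These comparisons share no arrays with each other. The 77 other middle miRNAs had a median of 0.06 in controls, with quartiles of -0.14 and 0.19. Under phenobarbital their median was -0.05, with quartiles of -0.34 and 0.13. Both middle members lay outside the quartiles in controls, and miR-98 did so under phenobarbital.

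Comparison families are set beside let-7 by their medians. Of the 5 members of the miR-30 family, the 3 of the miR-29 family and the 6 of the miR-15/16 family, none was called in the 5 contrasts. For genotype averaged over diets, where 5.56% of mouse miRNAs were called, 1 of the 6 miR-15/16 members was called higher in CTNNB1KO. No miR-30 or miR-29 member was. The median differences of these families, in that order, for CTNNB1KO against WT under phenobarbital were -0.30, 0.02 and 0.18. In controls they were -0.10, -0.29 and 0.07. For phenobarbital against control they were -0.01, -0.01 and -0.01 in WT, where let-7 had -0.05, and -0.15, 0.26 and 0.16 in CTNNB1KO, where let-7 had -0.03. No test of a difference between families was made.

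Arrays within a group moved several members together. On CTNNB1KO control replicate 3, 8 of 9 members had their lowest value of that group. The bright members lay on average 0.20 below their group means there, let-7e 0.76 below and miR-98 0.39 below. The 55 other bright miRNAs lay on average 0.01 above theirs on the same array, a mean over features that went both ways. The miR-15/16 family lay 0.21 below its group mean there, as low as the bright let-7 members, and the miR-29 and miR-30 families lay 0.13 above theirs. On WT control replicate 2, 7 of 9 members had their highest value of that group, and the bright members lay on average 0.13 above their group means.

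let-7e varied beyond the bright members on several arrays. Within CTNNB1KO livers with phenobarbital it deviated by -0.36 on replicate 2 and by 0.45 on replicate 3, where the bright members deviated by -0.11 and 0.06. On CTNNB1KO control replicate 2 it deviated by 0.63 and the bright members by 0.10. On CTNNB1KO phenobarbital replicate 4, miR-98 deviated by -0.38 and the bright members by 0.04.

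**Figure D4:**
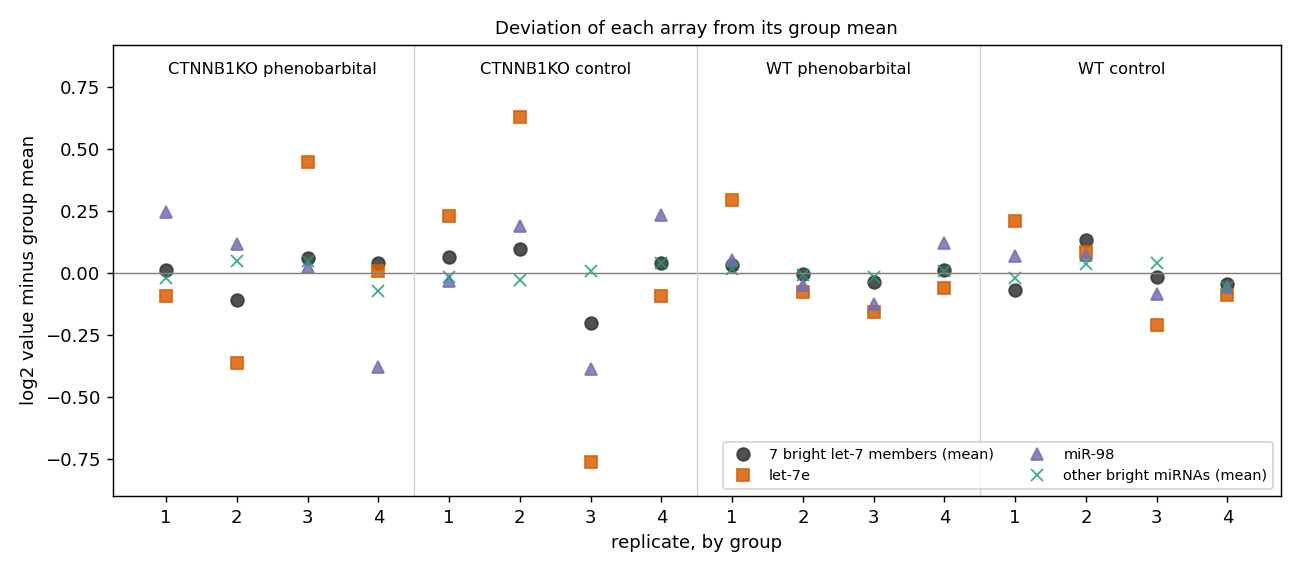
Deviation of each array from its group mean (y axis, log2) for the mean of the 7 bright members, let-7e, miR-98 and the mean of 55 other bright miRNAs; the x axis gives replicates by group. CTNNB1KO control replicate 3 is low for the bright members (-0.20), let-7e (-0.76) and miR-98 (-0.39), while the mean of other bright miRNAs is 0.01; the miR-15/16 family, not plotted, is at -0.21.

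Differences between members on the same array do not depend on how arrays were scaled by a constant, and they are given here for members whose hairpins share a cluster, chosen after the values were known and with no test. let-7f minus let-7a was 0.14 ± 0.07 in WT livers with phenobarbital and 0.26 ± 0.09 in WT controls (mean ± SD, n = 4 each), with overlapping arrays. In CTNNB1KO livers it was 0.10 ± 0.18 with phenobarbital and 0.09 ± 0.05 in controls. All 4 CTNNB1KO control values (0.03 to 0.144) lay below all 4 WT control values (0.150 to 0.38), by a narrow gap. The other pairs of the chromosome 13 cluster overlapped between genotypes in controls. let-7f minus let-7d was 1.75 to 2.15 in CTNNB1KO and 1.81 to 2.19 in WT. let-7d minus let-7a was -2.01 to -1.66 in CTNNB1KO and -1.92 to -1.66 in WT. let-7b minus let-7c stayed between -0.19 and 0.11 on all 16 arrays, with group means of -0.09, -0.03, -0.07 and -0.06 in CTNNB1KO with phenobarbital, CTNNB1KO controls, WT with phenobarbital and WT controls.

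miR-98 minus let-7f, whose X-linked copies lie side by side, was -6.16 ± 0.20 in CTNNB1KO and -5.66 ± 0.16 in WT livers with phenobarbital. In controls it was -5.90 ± 0.15 in CTNNB1KO and -5.77 ± 0.19 in WT. Under phenobarbital the genotypes did not overlap (-6.46 to -6.03 against -5.83 to -5.47), whereas in controls they did. let-7f also has the copy on chromosome 13, so this difference mixes both loci. Only its variation between groups is read, not its size.

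**Figure D5:**
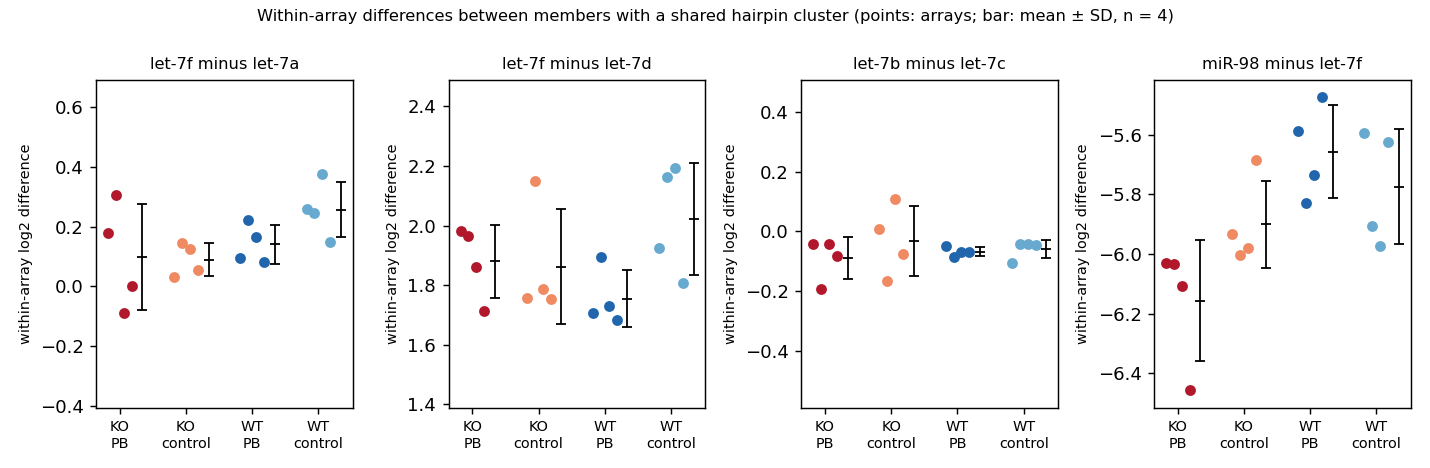
Within-array log2 difference (y axis) between members whose hairpins share a cluster, in CTNNB1KO (KO) and WT livers with phenobarbital (PB) and in controls; points are arrays and bars mean ± SD, n = 4. let-7b minus let-7c stays near 0 in all groups, and miR-98 minus let-7f is lowest in CTNNB1KO with phenobarbital (-6.16).

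miRNAs processed from the same regions as let-7 hairpins did not pass either. None of the 5 partners (miR-99a, miR-99b, miR-100, miR-125a-5p and miR-125b-5p) was called in the 5 contrasts. miR-99a, beside the let-7c copy on chromosome 16, stood between 6.13 and 6.93 in CTNNB1KO and between 6.90 and 7.18 in WT livers with phenobarbital (log2 values, 4 arrays each), a difference of -0.45 ± 0.16 (SE; limma adjusted p = 0.13). let-7c itself differed by 0.01 ± 0.09 there. The 7 opposite arms of let-7 hairpins, marked with an asterisk on the array, were all dim. Their mean was 3.81 on WT control replicate 4 and 3.22 to 3.40 on the other arrays.

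Likeness of pattern was measured as the root mean square difference between profiles over the 16 arrays, each profile minus its own mean. Among members, let-7c was closest to the mean of the other bright members (0.06), let-7i was the farthest bright member (0.17), and let-7e (0.32) and miR-98 (0.28) were farther still. Of 100 mouse miRNAs outside the family with means above the floor in every group, the closest to the mean bright profile were miR-15a (0.08), miR-24 (0.09) and miR-122 (0.11). This measure favours features that vary little, and all arrays share their scaling. Pairs of bright members that differ at 1 base had a median of 0.10 (3 pairs), those at 2 bases 0.14 (6 pairs) and those at 3 bases 0.16 (5 pairs). Those at 4 bases had 0.13 (6 pairs), and the 1 pair at 6 bases had 0.19. Among bright members the medians were higher at more base differences except at 4 bases, as a description with no test. The ranges at 3 bases (0.08 to 0.19) and at 4 bases (0.09 to 0.24) overlapped that at 1 base (0.06 to 0.12). The pairs share members, so no trend is read from them. Over all 36 pairs, let-7e and miR-98 included, the medians at 1 to 6 bases were 0.11, 0.17, 0.24, 0.17, 0.33 and 0.19. let-7a and let-7e, which differ at 1 base, had 0.28.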

How the data were processed

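The authors deposited 1 table of log2 values for 650 features on 16 arrays. The submitters' processing notes name RMA and limma without versions, and the background step and filters are not stated there. Labelling used 100 ng of RNA and an Agilent miRNA kit, per the labels. Sample titles gave groups and replicate numbers. No label ties each array to its own animal. The p-values therefore reflect only how these samples vary, part of which may be technical. Here limma 3.58.1 in R 4.3.3 fitted 1 mean for each group to the 611 mouse miRNAs over all arrays (12 residual degrees of freedom, eBayes with intensity trend, two-sided, Benjamini-Hochberg over 611). Tested on simulated data (phenobarbital in WT, 611 features), it recovered 19 of 20 changes of 0.5 and all 20 of 1 and of 2 (log2), with 3 false calls. The changed features were drawn at random from the 611, of which 470 were dim. Noise was drawn separately for each feature, without shifts that features of one array share, such as those seen on single arrays above. That recovery therefore does not give the power for single members, least of all for let-7e with its SD of 0.37. Alternatives were other variance models, weights, scalings, filters, a replicate block and leaving out each array. The members, lists and tests were chosen with earlier results of these data known. All 9 members are named, and other miRNAs come from fixed lists or are the 3 nearest profiles. Scanner files and slide positions were not used here, and the number of arrays limits precision. Correlations of same-numbered arrays did not settle whether replicate numbers pair the samples.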

Additional observations from a re-analysis of the deposited data

Results flagged for a closer look

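A single value stood apart from its group. let-7b on CTNNB1KO phenobarbital replicate 2 was 10.21, while the other 3 arrays of that group lay between 10.38 and 10.40. Its gap to the nearest array was 0.885 of the group's range, above Dixon's 95% critical value for 4 samples. In all, 36 sets of 4 arrays were examined, and chance flags about 1 in 20. The same array had the lowest value of its group for 6 of 9 members and carried muscle miRNAs, whose part in it was not tested.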

How the results depend on the processing

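Of the 45 differences (9 members, 5 contrasts), none passed, and their 27 alternatives gave 3 calls in 1206 values, with direction kept. With array weights 1 member, let-7f, was called in WT phenobarbital against control (-0.32). For CTNNB1KO against WT under phenobarbital, 1 member, miR-98, was called among miRNAs above the floor and, chosen after seeing the data, without the arrays with muscle miRNAs. Leaving out single arrays gave 0 calls in the 5 contrasts. For genotype averaged over diets, an added contrast, 1 member was called, 0 with the replicate block, 2 after quantile normalization (let-7a at 0.28 and miR-98 at -0.47) and 0 to 1 without single arrays. The replicate block ended no other call. Same-numbered arrays of different groups correlated between -0.33 and 0.34, over 0.1 in 8 of 24 pairs. Without correlations of differently numbered arrays beside them, these cannot show whether same-numbered samples share a batch. Signs changed in 52 of 1206 values, for 20 of 45 differences, the largest being 0.20 in size (let-7f between genotypes in controls). Quantile normalization turned let-7a (0.28), let-7d (0.00396) and let-7g (0.18) there too, and the cause was not tested. With the highest viral mean as floor and the 0.8 quantile for bright, all 9 members were bright. Calls over all mouse miRNAs ranged over the alternatives from 12 to 29 (17 as reported) for phenobarbital in WT, 0 to 1 (0) in CTNNB1KO, 3 to 9 (5) and 19 to 49 (23) for genotype in controls and under phenobarbital, 2 to 20 (7) for the interaction and 21 to 48 (34) for genotype averaged over diets.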
